A study of Mus musculus with 2 samples.

Results

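The 10 genes followed here set whether a cell dies or survives when the kinase TAK1 is blocked, and their RNA was measured across the cell types of mouse pancreatic tumours: Birc2, Birc3, Cflar, Ripk1, Ripk3, Mlkl, Casp8, Fadd, Bcl2l1 and Mcl1. They were chosen by name for their place downstream of TAK1, and all 10 were found among the 32285 genes of the deposited tables. The data are droplet single-cell RNA counts from 2 libraries, 1 from vehicle-treated and 1 from takinib-treated animals. Both groups were KPPC mice, a genetically engineered model of pancreatic cancer whose alleles and Cre driver the labels do not spell out. At 6 weeks of age they were given either vehicle or the TAK1 inhibitor takinib, dosed at 50 mg/kg, over 14 days. Tumour tissue was dissociated with the enzymes collagenase A and DNase-I and strained at 40 µm before capture, so cells that do not survive digestion are not represented. The labels do not give the number of mice in a library. With 1 library per group there is no replicate and therefore no test: each interval covers counting error only, and a difference between the libraries cannot be told apart from a difference between animals or runs.

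TAK1 is activated at the TNF receptor complex, where it switches on NF-kB and MAP kinase signalling and restrains RIPK1. When it is blocked, RIPK1 can pair with FADD and caspase-8 to trigger apoptosis, or with RIPK3, which activates the pore-forming protein MLKL in necroptosis. The cellular inhibitors of apoptosis encoded by Birc2 and Birc3 attach ubiquitin to RIPK1, the product of Cflar (c-FLIP) holds caspase-8 in check, and the BCL2 relatives encoded by Bcl2l1 and Mcl1 protect mitochondria. Birc3, Cflar and Bcl2l1 are known NF-kB target genes, and MCL1 is a short-lived protein on which neutrophils depend.

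Birc2 and Birc3 are neighbours on chromosome 9, on the same strand and 11634 bases apart, and Cflar and Casp8 are neighbours on chromosome 1, 36489 bases apart (GRCm38, GENCODE M21). The sequences upstream of Birc2, Birc3, Casp8 and Mcl1 are shown because the first pair are adjacent relatives with unlike values below, while Casp8 and Mcl1 had ratios of opposite sign in every class of cells compared. They are RefSeq promoter windows on GRCm38.p6, cut to bases that lie in no GENCODE exon and written 5′ to 3′ on the gene's own strand. The Birc2 window is chr9:7837065-7837307 on the minus strand, the Birc3 window is chr9:7873187-7873420 on the minus strand, the Casp8 window is chr1:58802252-58802501 on the plus strand inside the annotated gene (58795374 to 58847503), and the Mcl1 window is chr3:95658471-95658720 on the plus strand. Capitals mark a match to the CRE motif.
Birc2: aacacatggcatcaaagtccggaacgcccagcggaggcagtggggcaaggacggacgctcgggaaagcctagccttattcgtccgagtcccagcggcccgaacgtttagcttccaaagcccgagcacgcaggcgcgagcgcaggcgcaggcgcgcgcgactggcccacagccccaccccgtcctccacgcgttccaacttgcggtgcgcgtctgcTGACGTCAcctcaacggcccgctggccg
Birc3: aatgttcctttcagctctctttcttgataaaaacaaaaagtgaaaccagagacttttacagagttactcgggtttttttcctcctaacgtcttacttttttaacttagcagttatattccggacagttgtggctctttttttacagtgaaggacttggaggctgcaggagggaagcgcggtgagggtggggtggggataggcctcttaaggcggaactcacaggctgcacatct
Casp8: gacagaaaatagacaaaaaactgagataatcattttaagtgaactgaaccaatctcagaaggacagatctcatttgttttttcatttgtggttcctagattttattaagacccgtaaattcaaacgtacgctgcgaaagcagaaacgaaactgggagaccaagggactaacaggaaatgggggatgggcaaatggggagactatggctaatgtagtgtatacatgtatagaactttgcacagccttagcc
Mcl1: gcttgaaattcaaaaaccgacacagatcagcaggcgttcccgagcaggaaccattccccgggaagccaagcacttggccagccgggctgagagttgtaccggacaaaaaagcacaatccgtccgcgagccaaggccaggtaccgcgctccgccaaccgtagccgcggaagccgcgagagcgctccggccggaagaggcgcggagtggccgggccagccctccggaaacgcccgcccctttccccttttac
All 10 genes had a RefSeq window, 14 windows in all, and the 250 bases before each start were searched on both strands for the NF-kB consensus, AP-1 (TGANTCA), CRE (TGACGTCA) and the SRF consensus. The CRE match upstream of Birc2, which begins 35 bases before the start, and an NF-kB consensus match in 1 of 3 Bcl2l1 windows, 242 bases before the start and inside an annotated exon, were the only matches. Over 32851 mouse windows of the same length, 3.90% held the NF-kB consensus, 6.75% AP-1, 1.55% CRE and 1.47% the SRF consensus. A match is a description of these letters and not a measured site.

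After filtering and removal of doublets, 9558 vehicle cells with 42000538 UMIs and 25183 takinib cells with 119726977 UMIs remained. The medians were 3556 and 2887 UMIs per cell, and the median mitochondrial share was 8.70% in vehicle and 1.79% in takinib. Barcodes past the filters in both libraries numbered 400. Cells were clustered and named from marker genes, and 6 classes held at least 100 cells in each library: macrophage/monocyte-like (5060 vehicle and 7312 takinib cells), neutrophil-like (273 and 11864), epithelial-like (1172 and 1099), fibroblast-like (641 and 303), T-like (220 and 1028) and B-like (206 and 665). In every class at least 8 of its markers, or all 7 for the B-like class, were seen in 10% or more of the cells of both libraries. Of the vehicle cells, 1075 had UMIs of Xist and none of a Y-linked gene, and 3087 the reverse, whereas 14324 takinib cells had Xist and 0 had a Y-linked UMI. The vehicle library thus held cells of both sexes and the takinib library showed no Y-linked UMI. RNA of the neutrophil genes S100a8 and S100a9 was found in every takinib class: their summed level in epithelial-like cells was 95.7 CPM in vehicle and 12210 in takinib, and in macrophage/monocyte-like cells 313 and 8079 CPM.

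Mcl1 and Birc3 were the genes of the 10 that stood higher in the takinib library in all 6 classes compared, and Casp8 was the one that stood at or below the vehicle level in each. Exceptions arose under other settings for T- and B-like cells and for fibroblast-like Birc3. Birc3 was also not higher within the neutrophil-like cluster shared by both libraries. Levels are counts per 1000000 UMIs (CPM) summed over a class, and a difference is the log2 ratio of takinib to vehicle CPM with no pseudocount. A gene was compared where at least 20 counts were seen in 1 library, which 53 of the 60 gene and class pairs met, and a difference of 2-fold or more was counted. Of these 53 pairs, 6 were 2-fold or more higher in takinib and 3 were 2-fold or more lower. Of the 3 lower, Fadd in neutrophil-like cells rests on 1 vehicle count. The 7 pairs under the minimum were Ripk3 in B-like cells, Mlkl in T- and B-like cells, Fadd in fibroblast-, T- and B-like cells, and Bcl2l1 in B-like cells.

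These counts are set beside the share of all genes that passed the same rule. In all kept cells summed, 2 of the 10 were 2-fold higher, Birc3 and Mcl1, and 0 were lower, where 9.27% of all genes were higher and 19.2% lower. Among macrophage/monocyte-like cells 0 of 10 passed 2-fold in either direction (8.18% and 8.55% of all genes). In neutrophil-like cells 2 of 10 were higher, Birc3 and Cflar, and 3 lower, Birc2, Casp8 and Fadd, beside 6.25% and 44.7% of all genes. Fadd passed the minimum there through takinib alone: its 1 vehicle count is 2.84 CPM and its 29 takinib counts are 1.03 CPM. Any vehicle count would thus have made it 2-fold lower. In epithelial-like cells 2 of 10 were higher, Birc3 and Mcl1, and 0 lower (8.91% and 10.1%). In fibroblast-like cells 1 of 9 was higher, Mcl1, and 0 lower (8.03% and 13.2%). In T-like cells 1 of 8 was higher, Bcl2l1, and 0 lower (10.4% and 5.89%). In B-like cells 0 of 6 passed in either direction (10.0% and 3.02%). Taken over the genes compared, the median log2 ratio of the 10 was 0.08 in neutrophil-like cells, where the median of all genes was -0.87, and 0.23 in macrophage/monocyte-like cells, where it was -0.03. It was -0.03 in epithelial-like cells, where the median of all genes was -0.15, and 0.13 in fibroblast-like cells, where it was -0.16. In neutrophil-like cells the median of all genes and the 44.7% lower are partly set by the unequal depths of the libraries. Genes of few counts come out lower there by the rule, as Fadd did, so these values are no even reference for the 10.

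**Figure D1:**
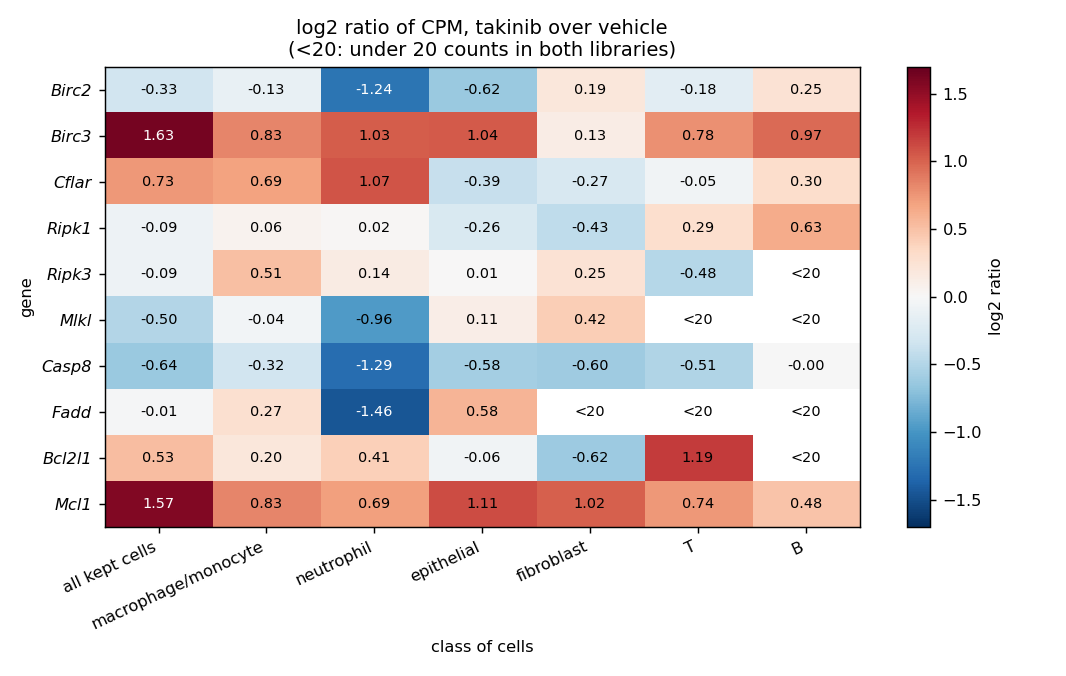
Log2 ratio of CPM, takinib over vehicle, for each of the 10 genes (rows) in all kept cells and in the 6 classes compared (columns), red for higher and blue for lower in takinib. The Mcl1 row is above 0 in every column, from 0.48 in B-like to 1.57 in all kept cells, and the Casp8 row is at or below 0 in every column.

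Birc3 and Birc2, the 2 cellular inhibitors of apoptosis, had unlike values. Birc3 encodes the member of the pair that NF-kB induces. Its level in macrophage/monocyte-like cells was 50.1 CPM in vehicle (95% interval 47.2 to 53.2) and 89.2 in takinib (86.6 to 91.9), a log2 ratio of 0.83 (0.74 to 0.93). In neutrophil-like cells Birc3 stood at 139 CPM in vehicle, from 49 counts, and 284 CPM in takinib, from 7970 counts, a log2 ratio of 1.03 (0.62 to 1.47). The takinib value was thus the higher in both myeloid classes, and in the neutrophil-like class it passed 2-fold. In epithelial-like cells Birc3 was 27.3 CPM in vehicle and 56.1 in takinib, a log2 ratio of 1.04 (0.81 to 1.27). In T-like cells it was 53.4 and 91.8 CPM, a log2 ratio of 0.78 (0.10 to 1.55). In B-like cells Birc3 was 84.8 and 166 CPM, a log2 ratio of 0.97 (0.44 to 1.54). Fibroblast-like cells were the exception, with 34.5 CPM in vehicle, 37.8 CPM in takinib and a log2 ratio of 0.13 whose interval (-0.26 to 0.53) covers 0. Birc3 was therefore above 0 in 6 of 6 classes, with the interval above 0 in 5.

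Birc2, its more evenly expressed relative, was level or lower. Macrophage/monocyte-like cells had Birc2 at 21.1 CPM in vehicle and 19.3 in takinib, a log2 ratio of -0.13 (-0.29 to 0.04). Epithelial-like cells had 39.6 and 25.7 CPM, a log2 ratio of -0.62 (-0.86 to -0.39). In neutrophil-like cells it was 45.4 CPM, from 16 counts, and 19.3 CPM, from 541 counts, a log2 ratio of -1.24 (-1.95 to -0.42). Birc2 was thus lower beyond counting error in epithelial- and neutrophil-like cells and within it in the other 4 classes: the ratios were 0.19 in fibroblast-like, -0.18 in T-like and 0.25 in B-like cells. In the classes where Birc3 was 2-fold higher, epithelial- and neutrophil-like, the neighbouring Birc2 was lower in takinib. Within the shared clusters of these classes, described below, Birc2 was nearer the vehicle level. Its ratio was -0.27 (-0.54 to 0.0002) in the epithelial-like Cdkn2a cluster, and its levels were 46.9 and 47.2 CPM in the neutrophil-like Mmp9 cluster. The order of Birc2 levels also ran differently over classes: among the 6 classes of the vehicle library it was highest in T-like cells (78.7 CPM) and lowest in macrophage/monocyte-like cells, whereas Birc3 was highest in neutrophil-like and lowest in epithelial-like cells. The T-like interval of Birc2 overlaps those of fibroblast-like (59.7 CPM), B-like and neutrophil-like cells. For Birc3 the neutrophil- and B-like intervals overlap, as do the epithelial- and fibroblast-like ones.

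**Figure D2:**
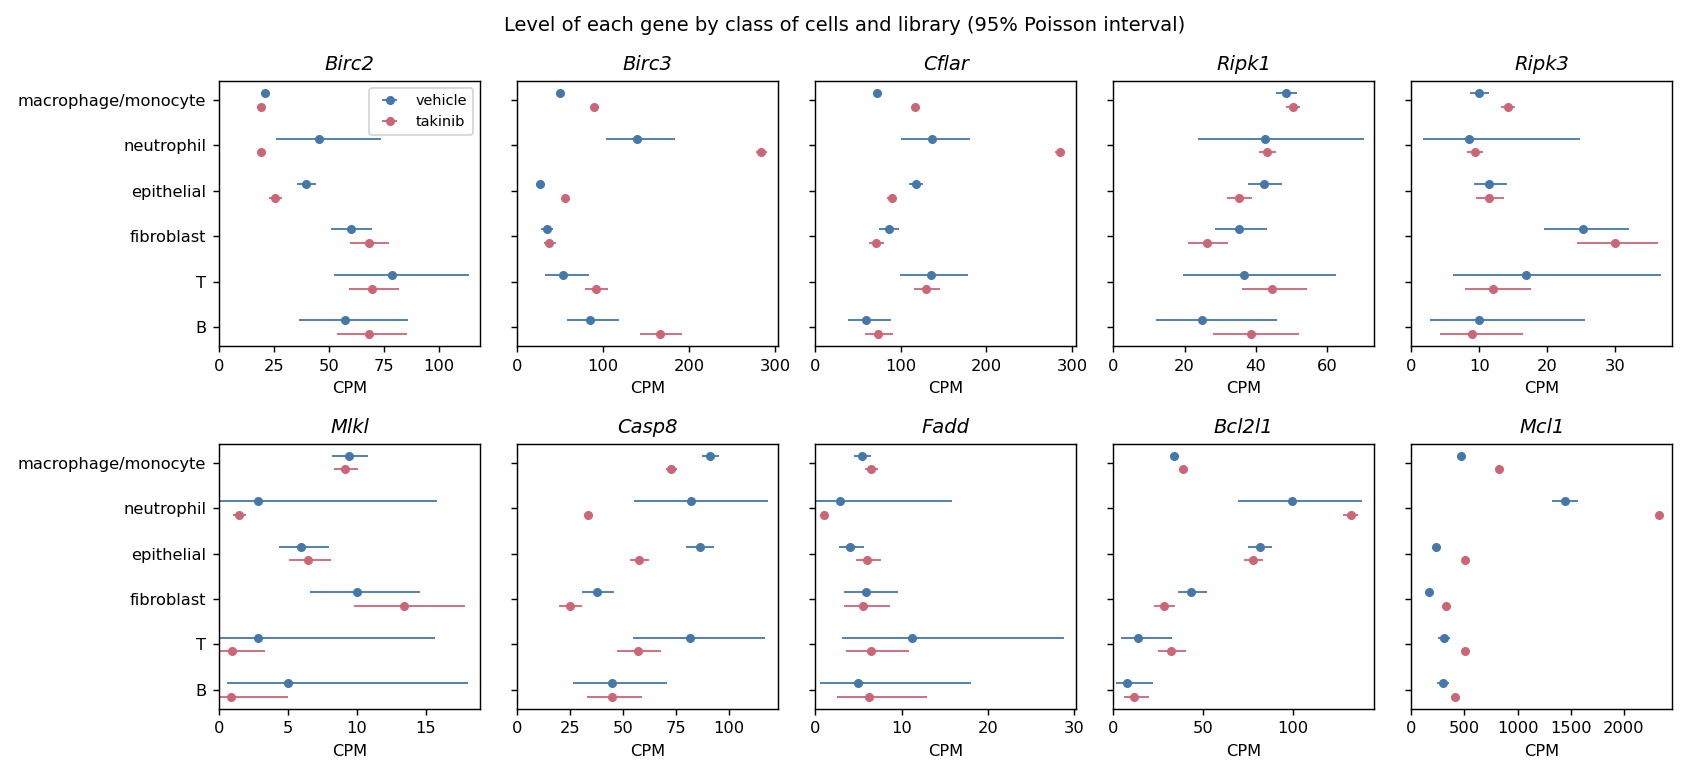
Level in CPM (x axis, starting at 0, each panel on its own scale) of each gene in the 6 classes for the vehicle library (blue) and the takinib library (red), with 95% Poisson intervals for counting error. Mcl1 and Birc3 are highest in neutrophil-like cells in both libraries, at 1442 and 2329 CPM for Mcl1 and 139 and 284 CPM for Birc3. The vehicle interval of Birc3 there overlaps that of B-like cells.

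Cflar, Casp8 and Fadd encode the 3 parts of the death-inducing complex: the decoy c-FLIP, the initiator protease and the adaptor. Casp8 in macrophage/monocyte-like cells was 91.3 CPM in vehicle (87.3 to 95.4) and 72.9 in takinib (70.5 to 75.3), a log2 ratio of -0.32 (-0.40 to -0.25). In epithelial-like cells Casp8 was 86.2 and 57.7 CPM, a log2 ratio of -0.58 (-0.74 to -0.42). In fibroblast-like cells it was 37.9 and 25 CPM, a log2 ratio of -0.60 (-1.03 to -0.17). The takinib library was the lower in these 3 classes beyond counting error, though by less than 2-fold. In neutrophil-like cells Casp8 was 82.3 CPM, from 29 counts, and 33.7 CPM, from 945 counts, a log2 ratio of -1.29 (-1.82 to -0.70). In T-like cells it was 81.5 and 57.0 CPM, a ratio of -0.51 (-1.11 to 0.12), and in B-like cells 44.9 and 44.8 CPM, a ratio of -0.001 (-0.80 to 0.86). Casp8 was thus below 0 in 6 of 6 classes and its interval in 4, and the B-like levels differed by less than counting error. With a mitochondrial limit of 10%, which left 37 vehicle T-like and 36 vehicle B-like cells, Casp8 was 0.05 in T-like and, from 2 vehicle counts, 1.46 in B-like cells, and with neutrophil RNA subtracted the B-like value was 0.009. Scaled so that the median gene stands at 0, the neutrophil-like Casp8 ratio was -0.42, since the median of all genes in that class lay at -0.87, and those of Birc2 and Fadd were -0.37 and -0.59. On that scale Birc3, Cflar, Bcl2l1 and Mcl1 stood at 1.90, 1.94, 1.28 and 1.56 in neutrophil-like cells and Ripk3, from 3 vehicle counts, at 1.01. The median of that class is partly set by its unequal depths, as given above, so these scaled values rest on an uneven reference. The same scaling shifts epithelial-like ratios up by 0.15 and fibroblast-like ones by 0.16, which leaves the signs of Mcl1, Birc3 and Casp8 there and turns Bcl2l1 in epithelial-like cells to 0.09.

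Cflar, summed over a class, stood on opposite sides of the vehicle level in myeloid and in epithelial-like cells, while within single clusters its ratios lay nearer 0. Its level in macrophage/monocyte-like cells was 72.6 CPM in vehicle and 117 in takinib, a log2 ratio of 0.69 (0.61 to 0.77). In neutrophil-like cells it was 136 CPM, from 48 counts, and 286 CPM, from 8025 counts, a log2 ratio of 1.07 (0.66 to 1.51). In epithelial-like cells Cflar was 118 and 89.4 CPM, a log2 ratio of -0.39 (-0.52 to -0.26). The 3 intervals lie on opposite sides of 0, so the epithelial-like value was below and the 2 myeloid values were above the vehicle level beyond counting error. With doublets kept, the epithelial-like ratio was 0.01. In fibroblast-like cells Cflar was 85.7 and 71.2 CPM, a ratio of -0.27 (-0.53 to -0.002). In T-like cells it was 135 and 130 CPM and in B-like cells 59.8 and 73.5 CPM, with both intervals covering 0. Set beside Casp8 in the same cells, Cflar and Casp8 had opposite signs in the 2 myeloid classes and the same sign in epithelial- and fibroblast-like cells.

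Fadd was counted sparsely, and in fibroblast-, T- and B-like cells it had fewer than 20 counts in both libraries. Macrophage/monocyte-like cells had 5.40 CPM in vehicle and 6.51 in takinib, a log2 ratio of 0.27 (-0.04 to 0.59). Epithelial-like cells had 4.02 and 6.03 CPM, a ratio of 0.58 (-0.05 to 1.24). In neutrophil-like cells the vehicle value rests on 1 count and the takinib value on 29, and the ratio of -1.46 has an interval from -4.05 to 3.89. No difference in Fadd was therefore detectable at this depth in any class as a whole. The antisense gene Faddos overlaps Fadd and is counted separately in the tables.

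Ripk1, Ripk3 and Mlkl, the kinases and the pore former of necroptosis, held 0 pairs past 2-fold in the classes compared. Ripk1 in macrophage/monocyte-like cells was 48.4 CPM in vehicle (45.5 to 51.4) and 50.4 in takinib (48.5 to 52.4), a log2 ratio of 0.06 (-0.05 to 0.16). By counting error alone, that interval reaches no further than 0.16 on the log2 scale. In neutrophil-like cells Ripk1 was 42.6 and 43.2 CPM, a ratio of 0.02 (-0.71 to 0.86) that was 0.89 with the median gene at 0 and, from 5 vehicle counts, -1.62 with a mitochondrial limit of 10%. Epithelial-like cells had 42.3 and 35.3 CPM, a ratio of -0.26 (-0.48 to -0.05), the 1 class in which the interval excluded 0. The fibroblast-like values were 35.3 and 26.2 CPM (-0.43), the T-like ones 36.5 and 44.5 CPM (0.29) and the B-like ones 24.9 and 38.6 CPM (0.63), each with an interval that covers 0. Serpinb6a lies on the opposite strand within the Ripk1 locus and is counted separately.

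Ripk3, whose kinase activity commits a cell to necroptosis, was highest among the 6 classes compared in fibroblast-like cells in both libraries, at 25.2 CPM in vehicle (19.6 to 32.0) and 29.9 in takinib (24.4 to 36.3). The takinib value there was above those of the other 5 classes, which ran from 8.97 CPM in B-like to 14.2 CPM in macrophage/monocyte-like cells. Macrophage/monocyte-like cells had Ripk3 at 9.97 and 14.2 CPM, a log2 ratio of 0.51 (0.29 to 0.74), and this was the only class of the 5 compared whose interval lay above 0. The epithelial-like levels were 11.4 and 11.5 CPM, a ratio of 0.01 (-0.39 to 0.41). The ratios of fibroblast-like (0.25), neutrophil-like (0.14, from 3 vehicle counts) and T-like cells (-0.48) had intervals that cover 0.

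Mlkl was low in lymphoid and neutrophil-like cells. In T- and B-like cells it had 1 and 2 vehicle counts and 2 and 1 takinib counts. In takinib neutrophil-like cells it was 1.46 CPM (1.05 to 1.98), from 41 counts, below the 9.17 CPM (8.34 to 10.1) of takinib macrophage/monocyte-like cells. Vehicle neutrophil-like cells gave 1 count of Mlkl, so the ratio of -0.96 there has an interval from -3.52 to 4.38 and shows no difference. Macrophage/monocyte-like cells had Mlkl at 9.43 CPM in vehicle and 9.17 in takinib, a log2 ratio of -0.04 (-0.28 to 0.20). Epithelial-like cells had 5.97 and 6.46 CPM (0.11) and fibroblast-like cells 10.02 and 13.4 CPM (0.42), both within counting error. The genes for the 3 necroptosis proteins were thus detected together in macrophage/monocyte-, epithelial- and fibroblast-like cells, at levels that differed by less than 1.5-fold between the libraries in the main setting. Fibroblast-like Mlkl was less stable: its ratio was -1.73 with cells thinned to 1000 UMIs. With only vehicle cells that had Xist and no Y-linked UMIs it was 1.62, and that of fibroblast-like Ripk1 was -0.99.

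Mcl1, the mitochondrial guard of short-lived myeloid cells, was higher in takinib in all 6 classes, each with an interval above 0, though the T-like value was -0.04 once neutrophil RNA was subtracted and -0.12 at a coarser clustering (Leiden resolution 0.5). In neutrophil-like cells it was 1442 CPM in vehicle (1320 to 1573) and 2329 in takinib (2311 to 2347), a log2 ratio of 0.69 (0.57 to 0.82). Macrophage/monocyte-like cells had 466 and 829 CPM, a log2 ratio of 0.83 (0.80 to 0.86). Both libraries thus kept the same order, with neutrophil-like cells well above macrophage/monocyte-like cells. In epithelial-like cells Mcl1 was 232 CPM in vehicle and 503 in takinib, a log2 ratio of 1.11 (1.04 to 1.19). In fibroblast-like cells it was 163 and 330 CPM, a log2 ratio of 1.02 (0.86 to 1.18). In T-like cells it was 303 and 508 CPM (0.74, 0.46 to 1.04) and in B-like cells 297 and 414 CPM (0.48, 0.19 to 0.78). The 2 classes past 2-fold were therefore epithelial-like and fibroblast-like, the ones with the lowest vehicle levels. With neutrophil RNA subtracted their ratios were 0.32 and 0.29, under 2-fold.

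Bcl2l1, which encodes BCL-XL, did not follow Mcl1. Its epithelial-like level was 81.4 CPM in vehicle (75.1 to 88.0) and 77.9 in takinib (72.9 to 83.2), a log2 ratio of -0.06 (-0.21 to 0.09). In fibroblast-like cells it was 43.4 and 28.2 CPM, a log2 ratio of -0.62 (-1.03 to -0.22), in the same cells in which Mcl1 was 2-fold higher. Macrophage/monocyte-like cells had 34.0 and 39.0 CPM, a ratio of 0.20 (0.08 to 0.32). The epithelial-like interval thus covers 0, and the fibroblast-like and macrophage/monocyte-like ones differed in opposite directions in the main setting. The macrophage/monocyte-like ratio kept its sign in 9 of 11 alternatives but was -0.07 with neutrophil RNA subtracted. In the shared H2-Ab1, Gpnmb and Atp6v0d2 clusters of that class, described below, it was -0.14, 0.05 and 0.16, and each interval covers 0. In neutrophil-like cells it was 99.4 and 132 CPM (0.41, -0.07 to 0.93). In T-like cells 5 vehicle counts and 69 takinib counts gave 14.1 and 32.0 CPM, a ratio of 1.19 that passed 2-fold with an interval from -0.10 to 2.86 that covers 0. It stayed past 2-fold in 2 of 9 alternatives and was 0.095 at Leiden resolution 0.5.

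In all kept cells summed, Birc3 was 40.8 CPM in vehicle and 126 in takinib, a log2 ratio of 1.63, and Mcl1 was 359 and 1064 CPM, a log2 ratio of 1.57. Both ratios exceed those of every single class. Neutrophil-like cells held 0.839% of the vehicle UMIs and 23.5% of the takinib UMIs. They gave 2.86% of the vehicle counts of Birc3 and 52.9% of the takinib counts, and for Mcl1 3.37% and 51.4%. With the 6 classes weighted as in the vehicle library, the ratio of Birc3 over those classes was 0.84 in place of 1.65, and that of Mcl1 was 0.87 in place of 1.60. For Cflar it was 0.35 in place of 0.92, and for Bcl2l1 0.06 in place of 0.61. Casp8 stayed below 0, at -0.40 in place of -0.57.

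A class can also hold different clusters in the 2 libraries. Of the takinib neutrophil-like cells, 184 fell in the cluster led by Mmp9 and Siglecf that held 264 of the 273 vehicle cells, and the rest lay in clusters led by Lst1, Ccl4 and Retnlg with 3, 1 and 5 vehicle cells. Within the Mmp9 cluster Birc3 was 141 CPM in vehicle and 136 in takinib, a log2 ratio of -0.05 (-0.65 to 0.56). Cflar was 138 and 117 CPM, a ratio of -0.24 (-0.88 to 0.39). The 2-fold higher values of Birc3 and Cflar in the class were therefore not seen within its shared cluster. Birc2, 2-fold lower in the class, had 46.9 and 47.2 CPM there, from 16 and 17 counts, which is under the minimum for a ratio, and Fadd had 1 and 0 counts. Mcl1 there was 1400 and 1741 CPM, a ratio of 0.31 (0.14 to 0.49), and Casp8 84.9 and 61.1 CPM, a ratio of -0.48 (-1.34 to 0.37). Bcl2l1 was 99.6 and 72.2 CPM, a ratio of -0.46 (-1.26 to 0.32).

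The 3 neutrophil-like clusters made almost wholly of takinib cells differed among themselves. Cflar was 343 CPM in the Ccl4 cluster (334 to 352), 237 CPM in the Lst1 cluster (227 to 248) and 131 CPM in the Retnlg cluster (118 to 144), a cluster whose leading genes include Cxcr2 and Ly6g, markers of mature neutrophils. Birc3 was 306, 285 and 177 CPM in the same order. Mcl1 was 2606, 1768 and 2498 CPM, so that the Lst1 cluster was low for Mcl1 while the Retnlg cluster was low for Birc3 and Cflar. Bcl2l1 was 151 CPM in the Ccl4 and 146 CPM in the Retnlg cluster, which overlap, and 92.4 CPM in the Lst1 cluster. Casp8 ran only from 32.6 to 35.6 CPM over the 3. These clusters were made from the expression of the same cells, so the differences among them are a description.

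**Figure D3:**
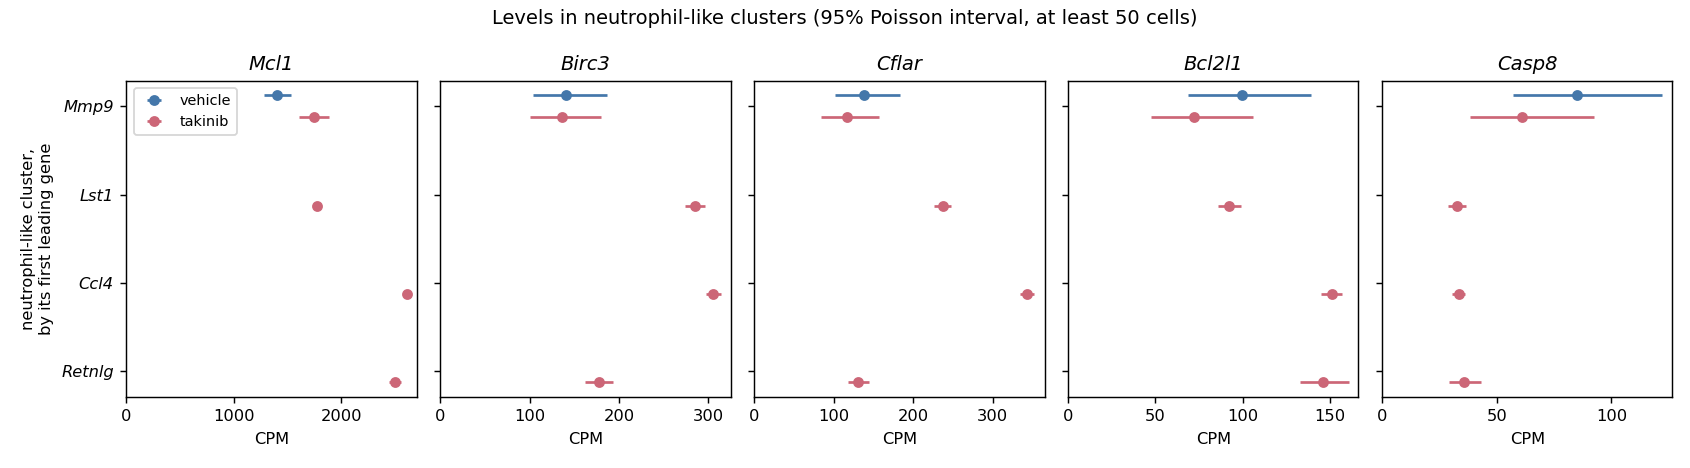
Level in CPM (x axis) of Mcl1, Birc3, Cflar, Bcl2l1 and Casp8 in the 4 neutrophil-like clusters (rows, by first leading gene), vehicle in blue and takinib in red, with 95% Poisson intervals. Only the Mmp9 cluster holds enough vehicle cells to plot both libraries. Cflar is highest in the Ccl4 cluster, at 343 CPM.

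Within the macrophage/monocyte-like class, 3 clusters held at least 100 cells of each library. In the cluster led by H2-Ab1, with 3044 vehicle and 483 takinib cells, Birc3 was 49.4 and 68.1 CPM (0.46, 0.23 to 0.70) and Mcl1 441 and 657 CPM (0.57, 0.50 to 0.65). In the cluster led by Gpnmb and Apoe, with 1268 and 1139 cells, Birc3 was 62.7 and 64.7 CPM (0.05, -0.16 to 0.26) and Mcl1 564 and 655 CPM (0.22, 0.15 to 0.28). In the cluster led by Atp6v0d2 and Chil3, with 665 and 1519 cells, Birc3 was 33.3 and 42.7 CPM (0.36, 0.06 to 0.67) and Mcl1 420 and 590 CPM (0.49, 0.41 to 0.57). All 6 values were below the class ratio of 0.83, and the interval of Birc3 in the Gpnmb cluster covers 0. The class also held takinib cells in clusters almost without vehicle cells: in the cluster led by Saa3 (11 vehicle and 2418 takinib cells) Mcl1 was 1004 CPM and Birc3 129 CPM, and in the one led by Vcan and Ccr2 (67 and 884 cells) they were 1055 and 108 CPM in takinib. Cflar was 69.4 and 85.3 CPM in the H2-Ab1 cluster (0.30, 0.09 to 0.51), 81.6 and 93.2 CPM in the Gpnmb cluster (0.19, 0.01 to 0.37) and 72.0 and 66.5 CPM in the Atp6v0d2 cluster (-0.11, -0.32 to 0.10), all below its class ratio of 0.69. Casp8 was between -0.33 and -0.21 in the 3 shared clusters. Fadd was above 0 in all 3 and in the H2-Ab1 cluster was 5.75 and 10.9 CPM, a ratio of 0.92 (0.27 to 1.54).

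Over the 9 clusters that reached 100 cells in both libraries, 78 gene and cluster pairs were compared, of which 4 were 2-fold or more higher in takinib and 0 lower. Over all genes, 7.98% of the gene and cluster pairs were 2-fold higher and 6.26% lower. Mcl1 was above 0 in 9 of 9, with ratios from 0.22 to 1.04. Birc3 was above 0 in 8 of 9, and Casp8 was below 0 in 9 of 9, from -0.61 to -0.001. Cflar was above 0 in 3 of 9 and below 0 in 6, from -0.32 to 0.30, so that its class ratios of 0.69 and 1.07 were reached in 0 of the shared clusters. The class ratios of fibroblast-, T- and B-like cells are themselves single clusters. For the Cdkn2a cluster of epithelial-like cells (799 and 805 cells), Birc3 was 23.5 and 50.5 CPM (1.10, 0.84 to 1.37), Mcl1 230 and 474 CPM (1.04, 0.96 to 1.13) and Casp8 87.0 and 57.1 CPM (-0.61, -0.78 to -0.44). Birc2 there was 30.7 and 25.5 CPM (-0.27, -0.54 to 0.0002). Over the 8 clusters in which Birc2 was compared, it was above 0 in 4 and below 0 in 4, with the interval below 0 in 1. An unnamed cluster led by Tff2 and Reg1, with 572 and 788 cells, gave 0.96 for Birc3, 0.74 for Mcl1 and -0.59 for Casp8.

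Neutrophil RNA was also higher in takinib outside the neutrophil-like class. The summed vehicle and takinib levels of 12 neutrophil markers were 183 and 13800 CPM among epithelial-like, 287 and 8196 CPM among fibroblast-like and 567 and 9210 CPM among macrophage/monocyte-like cells, with all 12 higher in takinib in each of these 3 classes and none at 0. In T-like cells they were 351 and 13690 CPM and in B-like cells 130 and 4128 CPM, with 12 and 11 of the markers higher. Mcl1, Birc3 and Cflar were themselves high in takinib neutrophil-like cells. The profile of those cells was therefore subtracted from the takinib counts of each other class until S100a8 and S100a9 stood at the vehicle level. This took 10.4% of the UMIs from epithelial-like and from T-like cells, 6.71% from macrophage/monocyte-like, 6.14% from fibroblast-like and 3.16% from B-like cells. The epithelial-like ratio of Birc3 was then 0.12 in place of 1.04 and that of Mcl1 0.32 in place of 1.11. The fibroblast-like ratio of Mcl1 was 0.29 in place of 1.02. After subtraction 0 pairs outside the neutrophil-like class were 2-fold higher, and 1 was 2-fold lower, Bcl2l1 in fibroblast-like cells (-1.02). The T-like ratio of Mcl1 was -0.04 in place of 0.74, and the fibroblast-like ratio of Birc3 -0.67 in place of 0.13. That ratio was also below 0, at -0.40, with only vehicle cells that had Xist and no Y-linked UMIs. In macrophage/monocyte-like cells the ratios of Birc3, Mcl1 and Cflar were 0.58, 0.63 and 0.53 after subtraction, and in B-like cells that of Birc3 was 0.93. Casp8 moved little, to -0.51 in epithelial-like, -0.63 in fibroblast-like and -0.27 in macrophage/monocyte-like cells. Cflar in epithelial-like cells was -0.82 in place of -0.39. The subtraction assumes that all S100a8 and S100a9 RNA above the vehicle level came from outside the cells of a class, which was not tested.

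**Figure D4:**
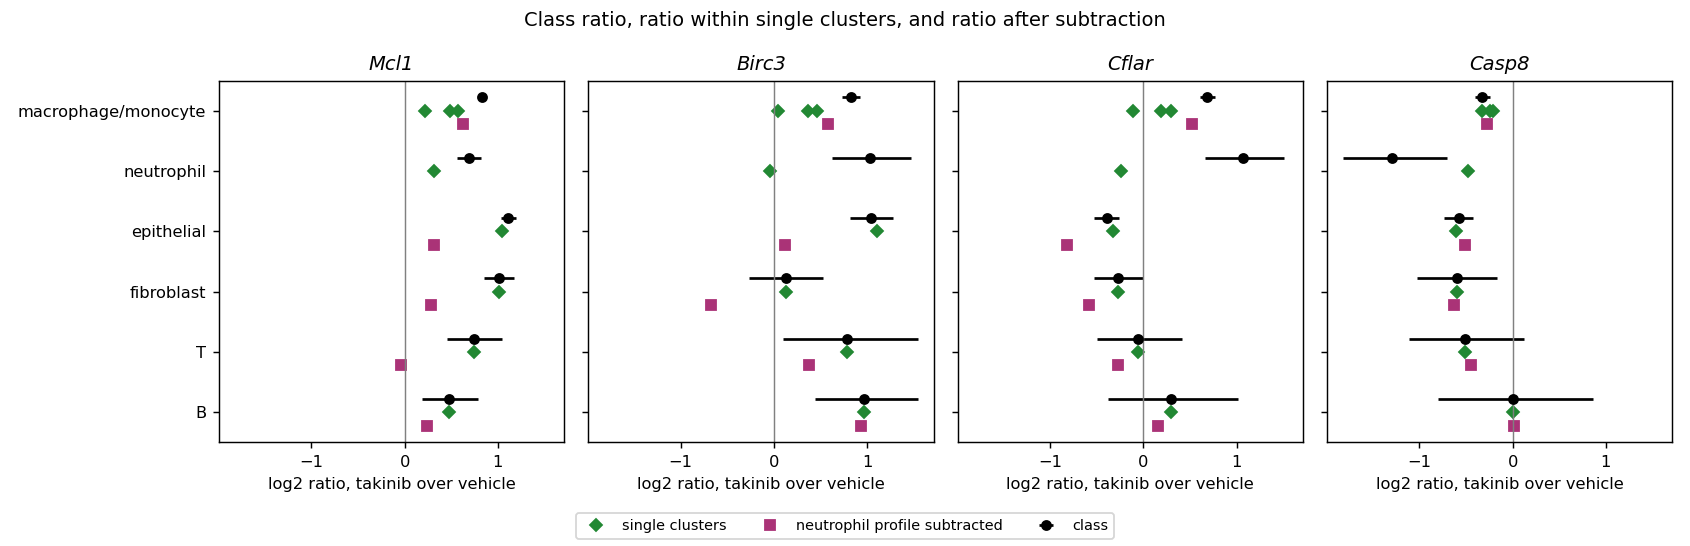
Log2 ratio of CPM, takinib over vehicle (x axis), of Mcl1, Birc3, Cflar and Casp8 for each class (black, with 95% intervals for counting error), within single clusters that reached 100 cells in both libraries (green diamonds) and after subtraction of the neutrophil profile (purple squares; not applied to neutrophil-like cells). The purple squares lie near 0 for Birc3 in epithelial-like cells, at 0.12, while those of Casp8 stay within 0.1 of the class value.

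The share of cells with at least 1 UMI was taken with each cell thinned to 1000 UMIs. For Mcl1 it was 36.4% of vehicle and 54.0% of takinib macrophage/monocyte-like cells (unthinned 78.0% and 94.2%, median depths 3874 and 5926 UMIs). In epithelial-like cells it was 21.2% and 43.5% (unthinned 63.2% and 84.7%, median depths 4582 and 6874 UMIs). For Birc3 it was 13.6% and 23.2% of neutrophil-like cells (unthinned 15.8% and 41.2%, median depths 1213 and 1798 UMIs). For Casp8 the epithelial-like shares were 9.13% and 5.91% (unthinned 36.4% and 35.9%). No class is known to lack these genes, so free RNA has no internal reference here. In vehicle barcodes with at most 100 UMIs, which hold mainly free RNA, Mcl1 stood at 345 CPM and Birc3 at 47.5 CPM. The deposited takinib barcodes begin at 500 UMIs and give no such value.

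Among the other genes of these pathways, 63 in 7 lists of which 6 are described here, the TNF receptor complex and its ubiquitin machinery form the longest. In the parentheses below, the vehicle and takinib levels come first and the log2 ratio last. Of the 18 genes of this list, all compared, 4 were higher and 0 lower in macrophage/monocyte-like cells (median 0.12, all genes -0.03), 6 higher and 4 lower in neutrophil-like (median -0.15, all genes -0.87), 5 higher and 0 lower in epithelial-like (median 0.09, all genes -0.15) and 2 higher and 0 lower in fibroblast-like cells (median 0.33, all genes -0.16). Of all genes, 8.18%, 6.25%, 8.91% and 8.03% were 2-fold higher and 8.55%, 44.7%, 10.1% and 13.2% lower in these 4 classes, in the same order, and the counts of the lists that follow stand beside the same shares. In neutrophil-like cells the 4 of 18 lower are thus a smaller share than that of all genes, which the unequal depths of that class partly set. The highest was Traf1, an adaptor gene that NF-kB induces, in macrophage/monocyte-like cells (9.01 and 55.1 CPM, 2.61), neutrophil-like cells (19.9 and 259 CPM, 3.71) and fibroblast-like cells (1.86 and 20.6 CPM, 3.48, from 5 vehicle counts). In epithelial-like cells it was Tnfrsf1b, TNF receptor 2 (13.2 and 78.9 CPM, 2.58). The lowest were Traf5 in macrophage/monocyte-like (-0.56) and neutrophil-like cells (-2.35, from 3 vehicle counts), Traf2 in epithelial-like (-0.94) and Rbck1, a subunit of the linear ubiquitin ligase, in fibroblast-like cells (-0.63). The epithelial- and fibroblast-like values of this list and of those that follow stand beside the same neutrophil RNA as Birc3 and Mcl1 above.

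Of 8 death receptors and ligands, 1 of 7 compared was higher and 0 lower in macrophage/monocyte-like cells, 1 of 6 higher and 1 lower in neutrophil-like, 2 of 6 higher and 0 lower in epithelial-like, and 2 of 6 higher and 0 lower in fibroblast-like cells. Fas, the receptor that recruits Fadd, was the highest in macrophage/monocyte-like (11.8 and 36.9 CPM, 1.65), neutrophil-like (25.6 and 219 CPM, 3.10, from 9 vehicle counts) and epithelial-like cells (3.89 and 26.2 CPM, 2.75), and Tnf in fibroblast-like cells (2.60 and 27.9 CPM, 3.43). The epithelial-like value of Fas is small beside its takinib neutrophil-like level and stands beside that neutrophil RNA. The lowest were Tnfsf10 (-0.34), Tnfrsf12a (-1.13), Tnfrsf12a (-0.13) and Tnfsf12 (-0.94) in the same order of classes.

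The 9 partners of necroptosis and pyroptosis, all compared, held 3 higher and 0 lower in macrophage/monocyte-like cells, 2 and 1 in neutrophil-like, 3 and 0 in epithelial-like and 2 and 1 in fibroblast-like cells. The highest were Gsdme, a pore-forming gasdermin, in macrophage/monocyte-like cells (2.29 and 6.47 CPM, 1.499), Casp4 in neutrophil-like cells (31.2 and 146 CPM, 2.22) and the inflammasome sensor Nlrp3 in epithelial-like (2.08 and 62.3 CPM, 4.91) and fibroblast-like cells (1.48 and 25.3 CPM, 4.09, from 4 vehicle counts). Nlrp3 in takinib neutrophil-like cells stood at 448 CPM. The lowest were Ticam1 (-0.65), Pgam5 (-1.68), Ppm1b (-0.26) and Ticam1 (-1.11) in macrophage/monocyte-, neutrophil-, epithelial- and fibroblast-like cells.

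The 5 other BCL2 survival genes differed between classes, and their counts stand beside the shares of all genes given above. Among macrophage/monocyte-like cells 0 of 5 passed 2-fold and 0 of 5 were above 0 (median -0.59), in neutrophil-like cells 0 were higher and 2 lower (median -0.99, all genes -0.87, with 44.7% of all genes lower), in epithelial-like cells 3 higher and 0 lower, and in fibroblast-like cells 0 higher and 2 lower. Bcl2 was 14.1 and 7.27 CPM in macrophage/monocyte-like cells (-0.95), 25.6 and 3.92 CPM in neutrophil-like (-2.71), 42.8 and 27.0 CPM in epithelial-like (-0.67) and 19.3 and 5.52 CPM in fibroblast-like cells (-1.81). Bcl2l2 was below 0 in all 4: -0.42, -1.76 (from 2 vehicle counts), -0.89 and -1.01. The near-identical copies Bcl2a1a, Bcl2a1b and Bcl2a1d, between which reads may be split, were 1.61, 1.83 and 1.60 in epithelial-like cells and -0.63, -0.38 and -0.59 in macrophage/monocyte-like cells. In neutrophil-like cells they were -0.99, -0.23 and -0.96, and in fibroblast-like cells 0.09, 0.11 and 0.25. Takinib neutrophil-like cells held the 3 copies at 252, 672 and 181 CPM, and the epithelial-like values stand beside the same neutrophil RNA as Birc3 and Mcl1 above. In T-like and in B-like cells 4 of the 5 genes were compared and 4 of 4 were above 0, with medians of 0.79 and 0.61 and 1 gene past 2-fold in each, Bcl2a1a in T-like (3.38, from 2 vehicle counts) and Bcl2a1b in B-like cells (1.14).

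The counts of the last 2 lists described also stand beside the shares of all genes given above. Of 6 other IAPs and their antagonists, 0 passed in macrophage/monocyte-like or epithelial-like cells, 2 of 6 were lower in neutrophil-like and 1 of 5 higher in fibroblast-like cells, Birc5, a mitotic gene (3.34 and 83.4 CPM, 4.64, from 9 vehicle counts). The extremes were Naip2 (0.49) and Birc5 (-0.45) in macrophage/monocyte-like, Birc5 (0.69) and Naip2 (-1.33) in neutrophil-like and Naip2 (0.17) and Diablo (-0.42) in epithelial-like cells, with Xiap lowest in fibroblast-like cells (-0.40). Of 11 pore formers and BH3-only genes, 0 of 10 passed in macrophage/monocyte-like and in epithelial-like cells, 1 of 8 was higher and 1 lower in neutrophil-like and 0 higher and 1 of 9 lower in fibroblast-like cells. Bid, which caspase-8 cleaves, was the highest in macrophage/monocyte-like (6.22 and 10.9 CPM, 0.81), neutrophil-like (1.41, from 2 vehicle counts) and fibroblast-like cells (0.71). Pmaip1, which encodes the MCL1 antagonist NOXA, was the lowest in those 3 (-0.63, -1.97 and -1.02) and the highest in epithelial-like cells (0.83), where Bik was lowest (-0.65). Among B-like cells 0 of 5 other IAPs and antagonists were higher and 1 lower, and 2 of 6 pore formers and BH3-only genes were higher and 0 lower. Among T-like cells 0 of 6 passed in the first of these lists, and 1 of 7 was higher and 1 lower in the second.

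The genes whose levels were most like each of the 10 were taken over 18 profiles (class by library, at least 100 cells), by Pearson's r of log2(CPM + 10) among 9086 genes. The profiles share 2 libraries and unequal depths, so r is a description. Mcl1 was most like Sirpb1b (0.949), Nfkbia (0.942) and Trem1 (0.942), the second of which encodes the NF-kB inhibitor and the others myeloid receptors. Birc3 was most like N4bp2l1 (0.897), Nfkbid (0.880) and Rel (0.879), the last an NF-kB subunit. Cflar was most like Klf7 (0.882) and Abtb2 (0.834), and Casp8 like 2510039O18Rik (0.872), Tspan14 (0.870) and Tet3 (0.856). Birc2 was most like Dpp4 (0.895), Nsmaf (0.794) and Unc119b (0.775), and Bcl2l1 like Blcap (0.879), Tnfrsf23 (0.871) and Igf1r (0.870). Ripk1 was most like Znfx1 (0.831), Prkx (0.822) and Ifnar1 (0.814), Ripk3 like Lix1l (0.906), Dcbld2 (0.900) and Prkar1a (0.897), and Mlkl like Dusp23 (0.901), Tmem165 (0.887) and Trim47 (0.887). Fadd, itself under the level set for the genes compared, was most like Atrip (0.857), Znhit2 (0.848) and Mrpl40 (0.845). None of the 10 was among the 3 most similar genes of another.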

How the data were processed

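Raw UMI counts per gene and barcode were deposited for both libraries. Per the file headers they were made with Cell Ranger 4 (vehicle) and Cell Ranger 6.1.1 (takinib), while the submitters' processing notes name Cell Ranger 2.1.1 and mm10. The vehicle matrix is unfiltered (704261 barcodes) and the takinib matrix starts at 500 UMIs. Barcodes with at least 1000 UMIs, 500 genes and at most 20% mitochondrial UMIs were kept. Scrublet removed 314 vehicle doublets. In takinib its automatic threshold marked 1 cell and was replaced by removal of the highest 6% of scores (1607 cells). Both libraries were clustered together in scanpy 1.11.5 (2000 variable genes, 30 components, 15 neighbours, Leiden resolution 1) without integration.

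A cluster was named from 20 marker lists, after the clusters were seen, by the highest mean scaled marker level, with at least 3 markers in 10% of cells. It stayed unnamed where another class reached 0.75 of that score or led its 10 top genes. Intervals are exact (Poisson for levels, conditional binomial for ratios, Clopper-Pearson for shares, 95%) and cover counting error only, and a count of 0 was set to 3. The 2-fold rule was tested on simulated data, at depths far less unequal than those of the neutrophil-like class, so the test does not cover that class. Named were all 10 genes, their 3 most similar genes, the highest and lowest gene of each list in 4 classes, and the other BCL2 survival genes. Nlrp3 in neutrophil-like cells was added after its value was seen. Of these, 1 list and 1 similar gene are not reported here. The 10 genes and all lists were chosen with earlier results of these data known. Alternatives changed the filters, doublets, depth, clustering, naming, sex of vehicle cells, scaling, neutrophil RNA, pseudocount, count minimum and fold.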

Additional observations from a re-analysis of the deposited data

How the results depend on the processing

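Against 6 gene and class pairs higher and 3 lower by 2-fold, the numbers higher and lower were 8 and 0 with at least 2000 UMIs and 1000 genes per cell, 5 and 0 with doublets kept, 3 and 3 with cells thinned to 1000 UMIs, 2 and 4 with each library clustered on its own, 2 and 0 with only vehicle cells that had Xist and no Y-linked UMIs, 9 and 0 with genes scaled to a median of 0, 0 and 1 with the neutrophil profile subtracted (5 classes, neutrophil-like cells left out), 2 and 1 with 10 CPM added, 6 and 5 with no count minimum, and 14 and 7 at 1.5-fold. With a mitochondrial limit of 10%, Leiden resolution 0.5, naming by score alone or a minimum of 50 counts they stayed within 1.5 times, though single ratios under 2-fold changed sign there, such as Mcl1 in T-like cells at resolution 0.5 (-0.12) and Casp8 in B-like cells at the 10% limit (1.46). Of the 9 pairs past 2-fold, 0 stayed past it under every one of these settings and 9 kept their sign under each that gave a value. Within the Mmp9 cluster, an alternative chosen after seeing the data, the neutrophil-like ratios of Birc3, Cflar and Bcl2l1 reversed to -0.047, -0.24 and -0.46. The log2 ratio of the share of fibroblast-like cells with a Casp8 UMI was 0.80 unthinned, the opposite sign to the thinned share. The causes were not tested. Weighting classes as in the vehicle library was also chosen after seeing the data. Own clustering left 0 vehicle B-like and 0 takinib fibroblast-like cells, and fewer than 20 vehicle cells remained among neutrophil-like cells at 2000 UMIs (7) and, with Xist only, among B-like (19), T-like (19) and neutrophil-like cells (9), so these gave no value. No paired analysis was possible because each group has 1 library. The 273 vehicle neutrophil-like cells, with 352208 UMIs, set the precision of every ratio in that class.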
